A study of Williopsis jadinii with 8 samples.

Results

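Wild-type Candida utilis after 24 h on xylose was compared with the same strain after 10.5 h on glucose, on 6 of the 8 one-colour oligonucleotide arrays of a study of xylose use by recombinant C. utilis (listed as Williopsis jadinii). The members were chosen by the strain, the medium and the time in their labels: 3 arrays of strain NBRC0988 (genotype wild-type, WT) in YPX5 medium with xylose, sampled at 24 h, and 3 arrays of NBRC0988 in YPD5 medium with glucose, sampled at 10.5 h. The remaining 2 arrays, of the xylose-fermenting strain TMS174 after 24 h on xylose, entered the fit to share the estimate of the spread, and counted in the filter on dim probes and in the order of levels over all arrays. All cultures were grown at 30 °C semi-aerobically and gently stirred, from an OD600 of 0.1 in 50 ml of medium that held peptone at 20 g/L and yeast extract at 10 g/L, after 3 days of preculture on glucose. The series text calls the replicates independent experiments, and the labels give no genotype for TMS174. The protocol writes 50 g/L for the xylose and 20 g/L for the glucose of the main cultures, although both media names carry the number 5. Medium, sampling time and, as written, the amount of sugar changed together and cannot be told apart.

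Yeasts that use xylose reduce it to xylitol, oxidise xylitol to xylulose and phosphorylate xylulose, which then enters the pentose phosphate pathway. Glucose is phosphorylated directly and enters glycolysis, and in many yeasts its presence represses genes for the use of other carbon sources. C. utilis is an industrial yeast used for fodder and food ingredients. The comparison asks which transcripts of the unmodified strain differ between the 2 sugars before any engineered pathway is added. None of these pathways could be followed by gene here, because the files name each target only by a design identifier (design ID), such as cut01g0030932, and none of the 8604 design IDs matched a name in the RefSeq gene table of 6184 genes. No probe sequence was used here. The results are therefore given for sets of design IDs, and only 4 design IDs are named.

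Each array held 15208 yeast probes, 1 or 2 for each design ID. A level is the log2 of the processed signal relative to the array's 75th percentile, averaged over the probes of a design ID, so that 0 is the 75th percentile of the probes. The 75th percentiles were 3844 to 4130 intensity units on the xylose arrays and 2958 to 3179 on the glucose arrays. The share of probes well above background ran from 90.9% to 95.2% on the xylose arrays and lay at 87.8% to 89.2% on the glucose arrays. The highest of these shares belonged to xylose replicate 3. No yeast probe was saturated. The 6 WT arrays lay on 1 slide and the 2 TMS174 arrays on another. Strain and slide therefore cannot be told apart where TMS174 is set beside WT. On the WT slide, the glucose arrays and xylose replicate 1 lay in the same section, and xylose replicates 2 and 3 in another. Medium and slide section thus changed together in part. Levels of 7966 design IDs were tested, with a median standard error (SE) of 0.11 for the log2 change. Precision is limited by the small number of arrays. Levels correlated across design IDs (a description, since design IDs are no replicates) at r = 0.993 to 0.996 among the xylose arrays, at 0.990 to 0.995 among the glucose arrays and at 0.926 to 0.944 between the groups. Glucose replicate 2 lay more than 0.5 from its group mean in 659 design IDs, against 167 to 448 for each of the other 5 WT arrays.

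In each direction 2 design IDs are named: the one with the largest fitted change, and the one with the largest fitted change among those whose 2 probes were both well above background on all 6 WT arrays. The largest fitted rise was that of cut01g0060195. Its first probe read 39820, 38770 and 37580 intensity units on the xylose arrays, against 1.46, 1.56 and 1.52 on the glucose arrays. Its second probe read 70100, 77340 and 63340 units on xylose, against 3.63, 1.90 and 1.76 on glucose. Every xylose array read both probes well above background, no glucose array did, and the groups did not overlap. Its level was 3.71 ± 0.13 on xylose (SD, n = 3), far above the 75th percentile. The rise was at least 5427-fold. The test was made on the fitted log2 change of 14.38, which uses the glucose readings at background (limma, adjusted p = 3.6e-07). This design ID passed the filter through xylose arrays alone. An "at least" value sets the bright group's mean against the dim group's mean. Each dim array counts there with the dim signal itself or with the lowest signal well above background, whichever is higher. That lowest signal belongs to the dimmest such probe of the array, and undetected spots can read above it. The value is therefore no strict lower bound. A p-value beside it tests the fitted change, with the dim signals as read.

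The largest rise with both probes well above background on all 6 WT arrays was that of cut01g0030932. Its level was 2.24, 1.56 and 1.09 on the xylose arrays, against -6.74, -7.55 and -7.03 on the glucose arrays. The xylose arrays thus all stood above the 75th percentile and the glucose arrays far below it, with no overlap. The log2 change was 8.74 (SE 0.35, limma adjusted p = 5.0e-06), or 427-fold higher. The spread on xylose was wide, at an SD of 0.58 (n = 3), with replicate 1 the highest of the 3 arrays on both probes.

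The largest fitted falls belonged to a pair with consecutive numbers, cut01g0030251 and cut01g0030252. The first probe of cut01g0030251 read 98.8, 78.9 and 108.6 units on xylose, against 22940, 25190 and 20190 units on glucose. On its second probe the values were 88.5, 70.1 and 89.8 units on xylose, against 15470, 17650 and 14420 units on glucose. Every spot was well above background, so the fall was measured on both sides: the log2 change was -8.13 (SE 0.12, limma adjusted p = 2.7e-07), or 280-fold lower. Its level was -5.49 ± 0.21 on xylose and 2.64 ± 0.10 on glucose (SD, n = 3 each).

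The level of cut01g0030252 was -8.63, -9.30 and -8.61 on the xylose arrays, against -0.44, -0.37 and -0.76 on the glucose arrays. Only xylose replicate 3 was well above background in that group, and the fall was at least 305-fold (limma adjusted p = 1.3e-06). In an alternative that took the median spot signal in place of the processed signal and corrected its background with limma's normexp, here called the normexp setting, the log2 changes were smaller for cut01g0060195 (9.35), cut01g0030932 (6.61), cut01g0030252 (-5.28) and cut01g0030251 (-7.39). This setting changes the signal and the background correction together and adds an offset of 50 units to every signal. An offset shrinks the fitted changes of dim signals most. The shares of these steps in its effect were not tested. All 4 passed the test with the same sign under each alternative in which they were tested. In TMS174 on xylose the level of cut01g0030932 averaged -2.74 over 2 arrays, between the means of both WT groups. That of cut01g0060195 averaged -0.47, also between the WT means. The level of cut01g0030251 averaged -5.48 in TMS174, and that of cut01g0030252 averaged -10.23, with no TMS174 spot well above background.

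**Figure D1:**
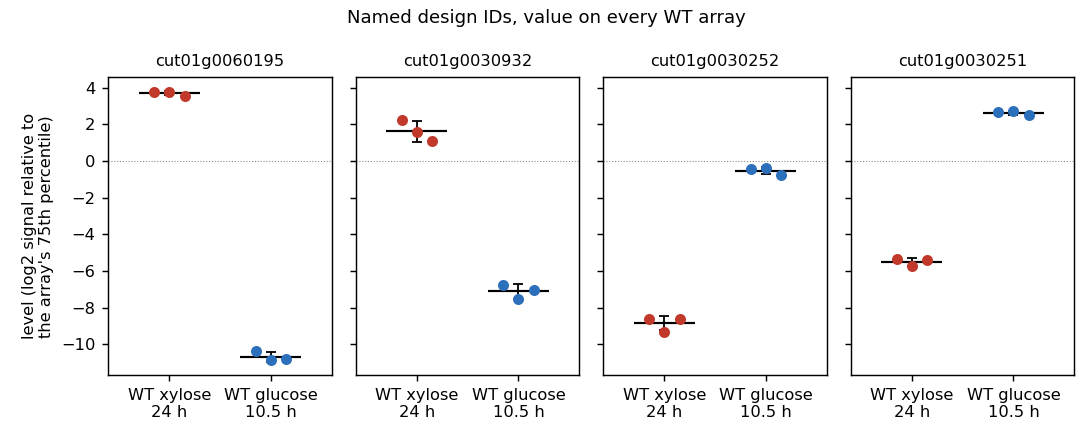
Level of the 4 named design IDs on every WT array (log2 signal relative to the array's 75th percentile), WT xylose left of WT glucose; points are arrays, the horizontal line is the mean and the bar its SD (n = 3 each). The groups do not overlap in any panel, and cut01g0030932 varied most among the xylose arrays, from 1.09 to 2.24.

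Over all tested design IDs, 5497 of 7966 differed between the media at an adjusted p under 0.05, which is 69% (limma with Benjamini-Hochberg adjustment). Of these, 2763 were higher on xylose (34.7% of those tested) and 2734 lower (34.3%). A change of at least 2-fold was called for 1150 higher design IDs (14.4%) and 933 lower ones (11.7%). At least 4-fold changes were called for 344 higher (4.32%) and 194 lower ones (2.44%). Which direction had more 2-fold calls depended on the scaling and the filter, as given below. Most called changes were small: the median was 1.79-fold for rises and 1.70-fold for falls, and 712 rises and 757 falls were under 0.5 on the log2 scale. At the other end, 49 design IDs rose and 19 fell at least 16-fold.

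The 2-fold counts include many changes whose size is not certain to reach 2-fold. Tested against a 2-fold change instead of against no change (limma's treat, chosen after seeing the data), 505 rises and 404 falls passed. Conversely, the 95% confidence interval of the change lay within 2-fold in both directions for 4530 design IDs (56.9%), and within 0.5 on the log2 scale for 1820 (22.9%). These intervals are not adjusted for the number of design IDs.

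**Figure D2:**
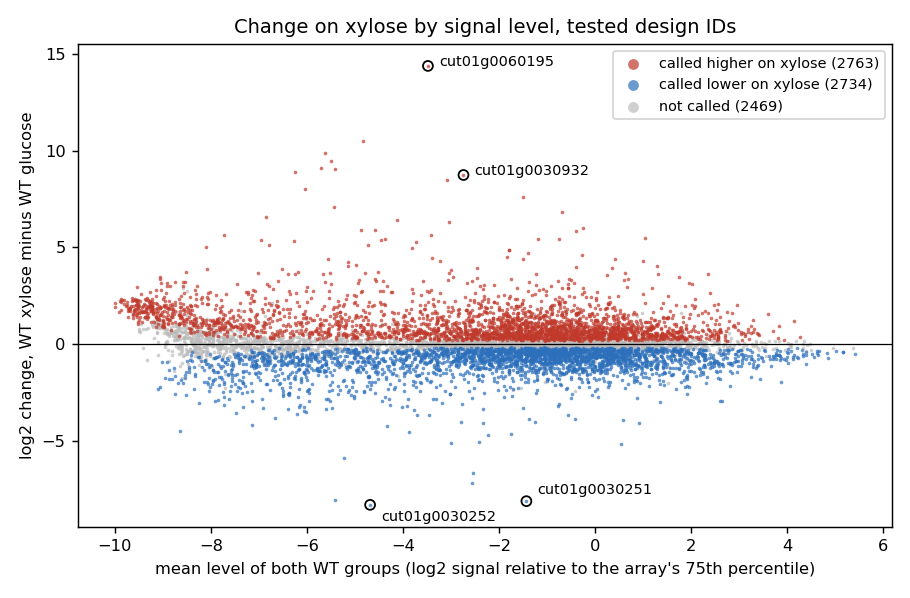
Log2 change of the 7966 tested design IDs (WT xylose minus WT glucose, vertical axis) against the mean level of both WT groups (log2 signal relative to the 75th percentile, horizontal axis), coloured by the limma call; the 4 named design IDs are circled. Rises and falls of moderate size are spread over all levels. The dimmest at the left are mostly higher on xylose with the processed signal, a direction that turned in the normexp setting with its offset of 50 units.

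The values of the 2 groups did not overlap for 5802 design IDs (72.8%), 2927 higher (36.7%) and 2875 lower (36.1%) on xylose. Nearly all calls, 5437, were among them. A further 365 design IDs did not overlap and were not called, and 60 were called although the ranges of the groups overlapped.

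Many rises started from a glucose signal at background. Of the 1150 rises of at least 2-fold, 827 (71.9%) were well above background on all glucose arrays, and 255 on none. Of the 933 falls of at least 2-fold, 856 (91.7%) had every xylose array well above background, and 20 had none. For the 16 rises of at least 64-fold the glucose side was above background on every array in 6 cases and on none in 9. These 16 design IDs stood at levels of -3.55 to 3.71 on xylose, 7 of them above the 75th percentile, and at -10.7 to -4.10 on glucose. The 5 falls of at least 64-fold stood at -9.43 to -5.49 on xylose and at -1.38 to 2.64 on glucose.

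**Figure D3:**
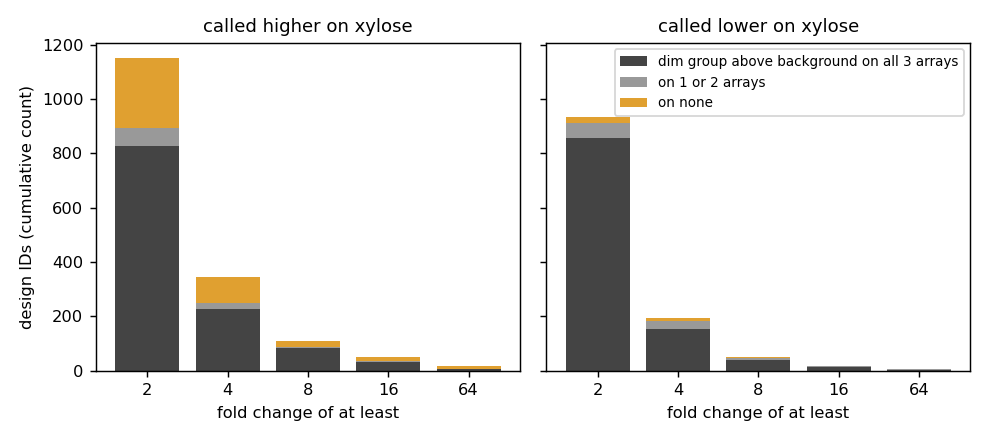
Number of design IDs called higher (left) and lower (right) on xylose with a fold change of at least 2, 4, 8, 16 or 64 (each bar includes the bars to its right), split by how many arrays of the dimmer group were well above background. Among changes of at least 2-fold, 255 rises and 20 falls had no array above background on the dim side.

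Design IDs well above background in 1 medium alone were mostly dim. On all 3 xylose arrays and no glucose array, 191 design IDs were above background; the opposite pattern was found for 15. Most of the 191 lay just above the threshold: 178 had a mean level under -6 on xylose, the median was -8.07, and 2 lay above the 75th percentile. Their "at least" folds had a median of 1.51, with 54 of 2-fold or more, 12 of 10-fold or more and 8 of 100-fold or more. The 15 had a median level of -7.20 on glucose and a median "at least" fold of 3.23, with 14 of 2-fold or more and none of 10-fold or more. Without xylose replicate 3, the array with the most probes above background, the counts were 192 and 45.

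The direction called among dim design IDs turned in the normexp setting, which adds an offset of 50 units to every signal. When the design IDs were ordered by their mean level over all 8 arrays and cut into 10 bins of equal size, the dimmest bin held 797. Of these, 339 were called higher and 98 lower, with a median log2 change of 0.65. The counts over all 7966 tested design IDs were 2763 and 2734. In the normexp setting, 3 of the 797 were called higher and 459 lower, with a median of -0.24, against 2177 and 3501 of all 7966. With the offset, dim probes read close to a constant, which was scaled to a 75th percentile that stood higher on the xylose arrays. The falls called in this setting therefore cannot show which way dim transcripts changed. The local background was 25 to 27 units on the xylose arrays and 24.5 to 26 on the glucose arrays, and negative-control spots read 28.5 to 29 and 28.5 to 30.5 units in these groups. The share called was 54.8% in the dimmest bin, 61.5% in the next and 68.1% to 75.3% in each of the brighter bins.

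The brightest design IDs held a smaller share of the summed signal on xylose. The 100 brightest design IDs of an array held 19.5%, 20.3% and 19.6% of the summed signal on the xylose arrays, against 23.7%, 22.2% and 22.6% on the glucose arrays. The means were 19.8% ± 0.44 on xylose and 22.8% ± 0.78 on glucose (SD, n = 3 each). No xylose array reached the lowest glucose array (two-sided exact permutation test, p = 0.1, the smallest that 3 against 3 arrays allow). The 10 brightest held 3.54% ± 0.12 on xylose and 4.25% ± 0.11 on glucose (SD, n = 3 each). These shares are set within each array and do not depend on the scaling between arrays. They compare brightness between different probes and so stand for signal, not for molecules.

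The membership of the bright set also differed. Of the 100 design IDs with the highest mean level in each medium, 65 were in both lists. Of the 35 found only in the xylose list, 29 were called higher on xylose, 18 of them at least 2-fold. The design ID cut01g0060195 was among these 35. Of the 35 found only in the glucose list, 33 were called lower on xylose, 16 of them at least 2-fold. Both lists were chosen by level, so that these directions follow in part from the choice. Over all tested design IDs, 34.7% were called higher and 34.3% lower. Among the 65 in both lists, 42 were called lower and 3 higher on xylose, with a median log2 change of -0.39. After scaling to the spike-in control spots, however, 8 of the 65 were called higher and 3 lower (median 0.01), against 3698 and 1163 of all 7966. The other settings kept more falls than rises: 23 lower and 12 higher after quantile normalization (median -0.07), 49 lower and 0 higher after median scaling (-0.48) and 46 lower and 3 higher in the normexp setting (-0.42). Of all 7966, these settings called 2964, 3043 and 3501 lower and 2592, 2442 and 2177 higher, in the same order.

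Design IDs that follow each other in number tended to change alike. A design ID consists of a fixed stem, 3 digits, here called the number group, and a 4-digit number. What the numbers stand for is not stated in the files. For 7128 pairs of tested design IDs with consecutive numbers, the log2 changes correlated at r = 0.25. The correlation was 0.08 for 6958 pairs 2 apart, 0.02 for pairs 3 apart and 0.01 for pairs 50 apart. With both design IDs measured by 2 probes above background on all 6 WT arrays, it was 0.15 for consecutive numbers (4177 pairs) and 0.05 for numbers 2 apart. These correlations run across design IDs on the same arrays and are a description. Neighbours on the array surface showed none of this: the changes of probes in adjacent columns correlated at 0.0037 and in adjacent rows at 0.0033, and consecutive numbers lay a median of 60.8 spots apart, against 60.5 for numbers 50 apart. Whether probes of consecutive design IDs overlap in sequence was not tested.

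Large changes often had a neighbour changed alike. Of the 327 design IDs at least 4-fold higher with a tested neighbour in number, 106 (32.4%) had a neighbour that was also at least 4-fold higher, against 7.29% of all 7656 design IDs with a tested neighbour. Of the 181 at least 4-fold lower, 36 (19.9%) had such a neighbour, against 4.04% of all. A neighbour changed at least 4-fold in the opposite direction was found for 7 of the 327 and 7 of the 181. Uninterrupted runs of consecutive numbers changed at least 4-fold the same way comprised 41 pairs and 8 triplets for rises and 15 pairs and 2 triplets for falls, and none was longer than 3. Of the 16 rises of at least 64-fold, 7 had a neighbour at least 4-fold higher, and of the 5 falls of that size 4 had a neighbour at least 4-fold lower.

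The design ID before cut01g0030932 rose at least 243-fold (limma adjusted p = 4.6e-06 for the fitted change). The one before that rose at least 13.8-fold (limma adjusted p = 6.9e-06 for the fitted change). Neither was above background on any glucose array, so both passed the filter through xylose arrays alone. The next one down rose 1.55-fold and the one after cut01g0030932 rose 2.32-fold. The design ID 3 places after cut01g0030932 changed the other way, with a 6.41-fold fall (limma adjusted p = 7.4e-06). Around the falling pair, the design ID before cut01g0030251 fell 7.19-fold (limma adjusted p = 3.0e-06), and the one 5 places before it fell 23.7-fold (limma adjusted p = 1.3e-06). The 3 design IDs that follow cut01g0030252 had log2 changes of -0.01, 0.09 and 0.03, none past the test, and the one 5 places after it rose 4.50-fold (limma adjusted p = 5.2e-05). Beside cut01g0060195, both preceding numbers were not tested, the following one rose 2.86-fold, the one after that fell 2.01-fold, and the design IDs 3, 4 and 5 places before it rose at least 2.36-fold, 8.55-fold and 3.73-fold, with each of these 3 above background in xylose medium alone.

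**Figure D4:**
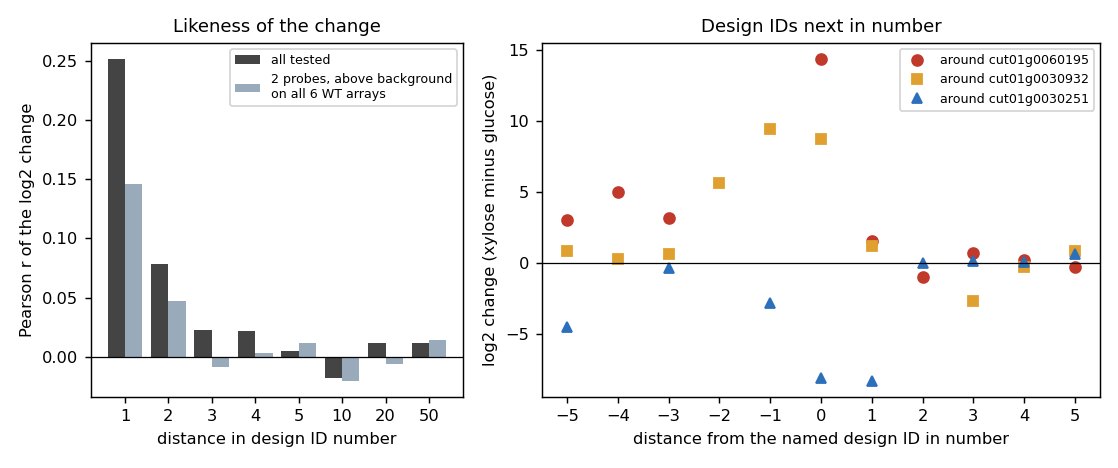
Left, Pearson's r of the log2 change between tested design IDs whose numbers lie 1 to 50 apart, for all tested design IDs and for those with 2 probes above background on all 6 WT arrays; r is 0.25 and 0.15 at a distance of 1 and under 0.03 in size from a distance of 3 on. Right, log2 change (WT xylose minus WT glucose) of the tested design IDs up to 5 places from 3 of the named ones, where the largest changes around cut01g0030932 and cut01g0030251 have a strongly changed neighbour before or after them, and the first 2 numbers before cut01g0060195 were not tested.

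One number group stood apart among those with at least 10 tested design IDs. Smaller number groups are not described here. The 8 large groups, 000 to 007, held 261 to 1490 tested design IDs each, with median log2 changes between -0.01 and 0.04 and 10.5% to 12.1% of members at least 2-fold lower. Number group 008, picked out after its values were seen and therefore given without a test of the group, held 26 design IDs, of which 20 were tested. Of these 20, 17 (85%) were at least 2-fold lower on xylose, against 11.7% of all tested design IDs called at that size, and none was at least 2-fold higher. The median log2 change was -1.51, a fall of 2.84-fold, and the range ran from -3.06 to 0.51.

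The median level of the 20 was -5.20, -5.30 and -5.36 on the xylose arrays, against -3.65, -3.74 and -3.59 on the glucose arrays. Each xylose array thus lay below each glucose array. The same 17 members were lower on all 3 xylose arrays than on any glucose array, a pattern shown by 36.1% of all tested design IDs. Of the other 3 tested members, 1 was called higher (log2 change 0.51, limma adjusted p = 0.00428) and 2 were not called (0.04 and 0.12). The falls were not limited to dim members: those with the highest glucose levels, at 1.36 and 1.29, had log2 changes of -1.51 and -1.98, and 14 of the 17 members above background on all 6 WT arrays were at least 2-fold lower. In TMS174 on xylose the median difference of the 20 from WT on glucose was -0.63, against -0.04 over all tested design IDs.

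In number group 008, 17 members were called lower under quantile normalization, median scaling and spike-in scaling, and likewise in the normexp setting. Of all 7966 tested design IDs, 2964, 3043, 1163 and 3501 were called lower in these settings, in the same order. The count of at least 2-fold lower members was 12 with spike-in scaling and 11 in the normexp setting, against 498 and 671 called at that size among all 7966. Among the other groups of at least 10 tested members, group 011 came nearest, with a median log2 change of -0.74 and 5 of 14 members at least 2-fold lower.

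**Figure D5:**
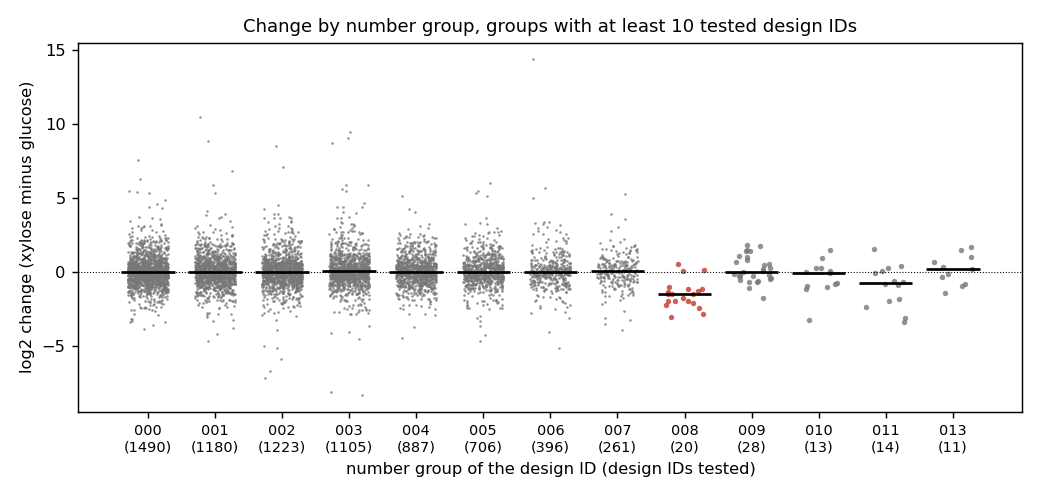
Log2 change (WT xylose minus WT glucose) of each tested design ID by its number group, for groups with at least 10 tested design IDs (their number in brackets); the black line is the group's median and group 008 is in red. The median of group 008 is -1.51, while those of groups 000 to 007 lie between -0.01 and 0.04.

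Probes of the same design ID gave like values. For 6229 design IDs with 2 tested probes, the changes of the 2 probes correlated at r = 0.955 across design IDs, and their median difference was 0.07 on the log2 scale. Both probes were called for 3864 design IDs, in opposite directions for 26 of them. The 2 probes differed by more than 2-fold in their change for 134 design IDs (2.15%). Of the 1495 two-probe design IDs whose mean change was 2-fold or more, 1322 (88.4%) had both probes at least 2-fold changed the same way.

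The split between rises and falls moved with the scaling, with the filter and in the normexp setting. Rises made up 50.3% of the calls here, 46.7% after quantile normalization, 44.5% after median scaling, 76.1% after scaling to the 6 spike-in control probes, which put the log2 change of the median design ID at 0.42, and 38.3% in the normexp setting, which put it at -0.16. The 2-fold calls were 1943 higher and 498 lower with spike-in scaling, and 602 higher and 671 lower in the normexp setting. They were 984 higher and 1030 lower after quantile normalization, and 1041 and 1079 after median scaling. With only probes above background on all 6 WT arrays they were 810 higher and 851 lower, and without a filter 1288 and 934.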

How the data were processed

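Total RNA of 8 yeast cultures was labelled with Cy3 and hybridised to 1 one-colour array each. The deposited scanner files hold intensity values from Agilent Feature Extraction 9.5.3.1, per the submitters' processing notes: a processed signal, background-subtracted and detrended per the file headers, and the median spot and local background intensity. The scanner files' other values used are the deposited 0 or 1 flags for outliers, saturation and signal well above background. The deposited value table is a linear ratio: the authors' processed signal divided by 1 number per array, not centred by gene. Column medians were 0.317, 0.307 and 0.316 for xylose and 0.300, 0.293 and 0.291 for glucose.

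From the processed signal, log2 levels relative to the 75th percentile of the array were computed. Control spots (536) and outlier spots (0 to 10 per array) were left out. Probes well above background on at least 2 of 8 arrays were retained and averaged by design ID, and 7966 of 8604 design IDs were tested with limma 3.58.1 in R 4.3.3: 3 group means over 8 arrays, eBayes, Benjamini-Hochberg adjustment, called at an adjusted p under 0.05. The fit was tested on simulated data. In each direction the largest called change between groups that do not overlap was named, and the largest among those with 2 probes above background on all 6 WT arrays. Without gene names, the pathway lists could not be applied. The comparison and lists were chosen with earlier results of these data known. The main fit did not pair arrays by replicate number. Deviations of same-numbered xylose and glucose arrays correlated at 0.0245, 0.185 and 0.0765 across design IDs. Those of differently numbered arrays correlated at -0.218 to 0.124. Whether the numbers mark pairs was not tested. Other background corrections, scalings, filters, fits and left-out arrays were tried.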

Additional observations from a re-analysis of the deposited data

Results flagged for a closer look

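The spike-in control spots, which enter no comparison above except as an alternative scaling, differed between the groups relative to the yeast probes. The 75th percentile of the yeast probes stood 2.22, 1.86 and 1.82 above the mean of the 6 spike-in probes on the log2 scale on the xylose arrays, against 1.49, 1.71 and 1.51 on the glucose arrays. All xylose arrays lay above all glucose arrays, with a difference of 0.402 (two-sided exact permutation test, p = 0.1, the smallest that 3 against 3 arrays allow). What this difference comes from was not tested. Dixon's test for a single outlying array was not run on the WT groups of 3 arrays each.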

How the results depend on the processing

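With spike-in scaling 1163 design IDs were called lower on xylose, and 1943 were at least 2-fold higher and 498 at least 2-fold lower. The normexp setting changes both the signal and the background correction and adds an offset of 50 units. There, 602 were at least 2-fold higher, and 93 of the 4942 design IDs called in both fits had the opposite direction. Single probes gave 9603 calls of 14195, 4821 higher and 4782 lower (1949 and 1603 of at least 2-fold), because more features were tested. Tested against 2-fold, 505 passed higher and 404 lower. Leaving out 1 array gave 4985 to 5696 calls, 2466 to 2790 higher and 2519 to 2906 lower, 1092 to 1176 at least 2-fold higher and 867 to 1038 at least 2-fold lower. Design IDs above background on glucose alone then numbered 15 to 45 and those on xylose alone 192 to 255; the 45 came without xylose replicate 3. The fit with the replicate number as a block gave 5383 calls and changed no named design ID's call. By deviations from the group mean, xylose replicate 1 correlated best with glucose replicate 3. Xylose replicates 2 and 3 each correlated best with the glucose array of the same number. With xylose replicate 1 alone, the only xylose array in the same section of the slide as the glucose arrays (chosen after seeing the data), 3930 were called, with the lone array assumed to vary like the other groups, so that these calls carry no xylose replication. The correlation between consecutive numbers was 0.178 in the normexp setting, 0.192 with probes above background on all 6 WT arrays, and 0.146 when both design IDs also needed 2 such probes. Signal near background limits the size and direction of changes among dim design IDs.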
